A study of Mus musculus with 51 samples.

Results

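The genes studied here encode subunits of the receptors for glutamate and GABA, the main excitatory and inhibitory transmitters of the brain. They were chosen by name: the single gene symbol of a probe set had to begin with Gria, Grid, Grik, Grin, Grm, Gabra, Gabrb, Gabrd, Gabre, Gabrg, Gabrq or Gabrr, with a subunit number where the glutamate families use one, or to be Gabbr1 or Gabbr2. This gave 29 of the 11807 genes with a single symbol on the array, measured by 36 of its 22626 non-control probe sets, and each gene was represented by the probe set with the highest mean over all arrays. Of these, Grid2ip encodes delphilin, a scaffold protein and not a receptor subunit, so 28 of the 29 are subunits. Members of these families without such a probe set were not analysed here.

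Fast glutamate signals pass through tetrameric ion channels of the AMPA (Gria), kainate (Grik) and NMDA (Grin) families, while the Grm genes encode G protein-coupled receptors. Fast GABA signals pass through the pentameric GABA-A receptor, a chloride channel whose alpha, beta, gamma and delta subunits set where on the neuron the receptor sits and how it responds, and slower signals pass through the G protein-coupled GABA-B receptor. In the hippocampus, the pyramidal cells of CA1 and CA3 and the granule cells of the dentate gyrus (DG) are joined in one circuit and differ in the subunits they carry.

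RNA came from the CA1 and CA3 pyramidal layers and the DG granule layer, cut by laser from frozen hippocampus of 17 female mice aged 4.5 months, with 1 microarray for each mouse and subfield (51 arrays). The 6 rTg4510 mice carried both transgenes of the model, a CaMKIIα-tTA activator, which is driven in forebrain excitatory neurons, and a TRE-htau responder, which encodes human tau with a dementia mutation. The 5 tTA mice carried the activator alone and the 6 DN (double negative) mice, also littermates, carried neither transgene, so all groups came from the same cross of breeders of different inbred strains, the responder line being FVB/N. Subfields were compared to learn how the cell layers differ, and rTg4510 was compared with tTA to isolate the tau transgene and with DN to cover both transgenes.

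Array medians lay between 2.91 and 3.12 on the log2 scale. The DG markers separated the DG arrays from the rest, with a mean log2 signal over 6 genes of at least 5.44 in DG, against at most 4.46 in CA1 and 3.65 in CA3. On marker scores, 44 of 51 arrays scored highest for the subfield on their label, and the other 7 were all labelled CA1 and scored highest for CA3 (mouse 1 and mouse 2 of DN, mouse 1 and mouse 4 of tTA, and mouse 1, mouse 3 and mouse 6 of rTg4510). Below, these 7 are called CA1 arrays with CA3 markers. The name is relative, since the CA3 score was negative in mouse 1 of DN (−0.173) and mouse 3 of rTg4510 (−0.094). Some margins were small: mouse 3 of rTg4510 scored −0.111 for CA1. Mouse 5 of DN, not among the 7, scored −0.097 for CA1 and −0.128 for CA3. Signal for Prnp, parts of which the tau transgene carries, went against the genotype label in 5 arrays (mouse 4 of DN in all 3 subfields, mouse 5 of DN in DG and mouse 3 of rTg4510 in DG). Xist was low for a female in 3 arrays (mouse 5 of DN in CA1 and CA3 and mouse 3 of rTg4510 in DG), so 7 different arrays went against a label by one or the other. Genotypes and subfields below are those of the labels, and a call that was lost without either set of 7 arrays is given with its value there.

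Among the 29 genes, 16 had a mean signal above the mean array median in every subfield: Gria1, Gria2, Gria3, Gria4, Grik2, Grik5, Grin2a, Grin2b, Grin2c, Gabra2, Gabrb1, Gabrb2, Gabrd, Gabrg1, Gabrg3 and Gabbr1. Grid1 was above it in CA1 alone. Means below the array median in all 3 subfields were found for the other 12, Gabra3, Gabra6, Gabre, Gabrq, Gabrr1, Gabrr2, Grid2ip, Grik1, Grik3, Grin2d, Grin3b and Grm8. For comparison, 90 of every 100 probe sets of genes of testis, pancreas, liver and other non-neural tissue lay under 2.23 on the log2 scale, a mark used here for background signal. The mean over all arrays lay under that mark for 8 of the 29 genes (Gabra3, Gabra6, Gabre, Gabrq, Gabrr1, Gabrr2, Grid2ip and Grm8), so their values below are differences between signals at background level, apart from Gabra3 in CA1. The scatter of a gene among mice, within groups of one genotype and subfield, ranged from an SD of 0.20 for Gabra6 to 1.22 for Grin2b. It was 0.28 for Gria2 and for Gria3 but 1.05 for Gabrg1, 1.15 for Gabrd and 1.17 for Gria4, so the same difference was easier to resolve in the AMPA subunits Gria2 and Gria3 than in Gria4 or the delta subunit.

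**Figure D1:**
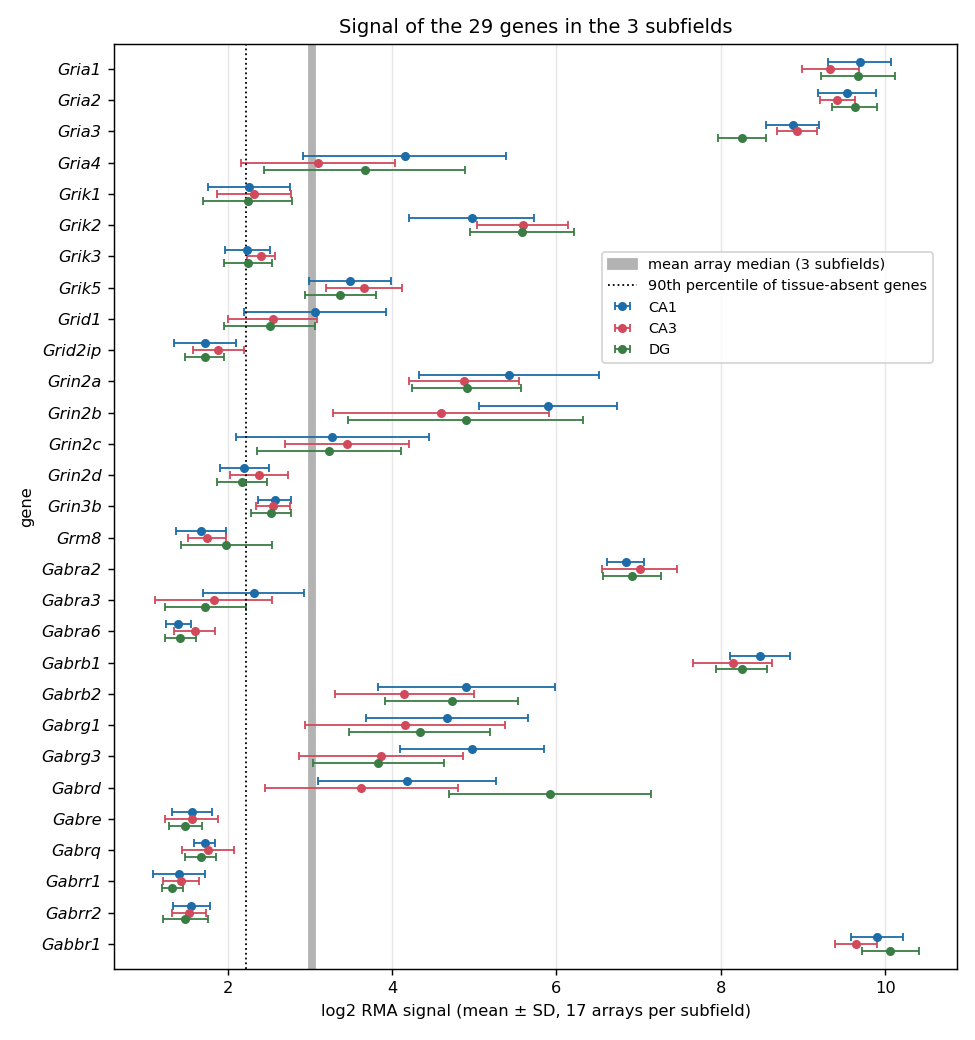
Mean log2 RMA signal ± SD of the 29 genes over 17 arrays in each of CA1 (blue), CA3 (red) and DG (green), with the mean array medians as a grey band and the 90th percentile of genes of other tissues as a dotted line. Signals can be compared within a gene and not between genes; DG lies apart from CA1 and CA3 for Gabrd (5.93 against 4.19 and 3.63) and for Gria3 (8.26 against 8.87 and 8.93).

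Subfields were compared within the same 17 mice, and 7 of the 29 genes passed the test in at least one of the 3 comparisons (limma, Benjamini-Hochberg adjusted p under 0.05 over all probe sets). Between CA1 and CA3, 3 of 29 passed, all higher in CA1 (Gabrg3, Grin2b and Gabra3), where 4.68% of all probe sets passed (2.46% higher and 2.22% lower in CA1). Between CA1 and DG, 4 of 29 passed, Gabrg3, Gabra3 and Gria3 higher in CA1 and Gabrd lower, against 10.9% of all probe sets (5.6% higher and 5.33% lower in CA1). Between CA3 and DG, 4 of 29 passed, Gria3 higher in CA3 and Gabrd, Gabbr1 and Gria1 lower, against 13.9% of all probe sets (7.27% higher and 6.59% lower in CA3). Counts of 3 or 4 of 29 genes are small, and nothing particular to the receptor genes is read from them. The median difference of the 29 genes was 0.02, 0.05 and 0.04 in the 3 comparisons, where that of all probe sets was −0.03, 0.02 and 0.05. At an unadjusted p under 0.05, 41.4% of the 29 genes passed between CA1 and CA3 where 15.9% of all probe sets did, and the shares were 31% against 21.9% between CA1 and DG and 24.1% against 25.9% between CA3 and DG. In RNA of a whole cell layer, fewer cells of a type and less RNA per cell cannot be told apart, and this holds for every difference below.

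**Figure D2:**
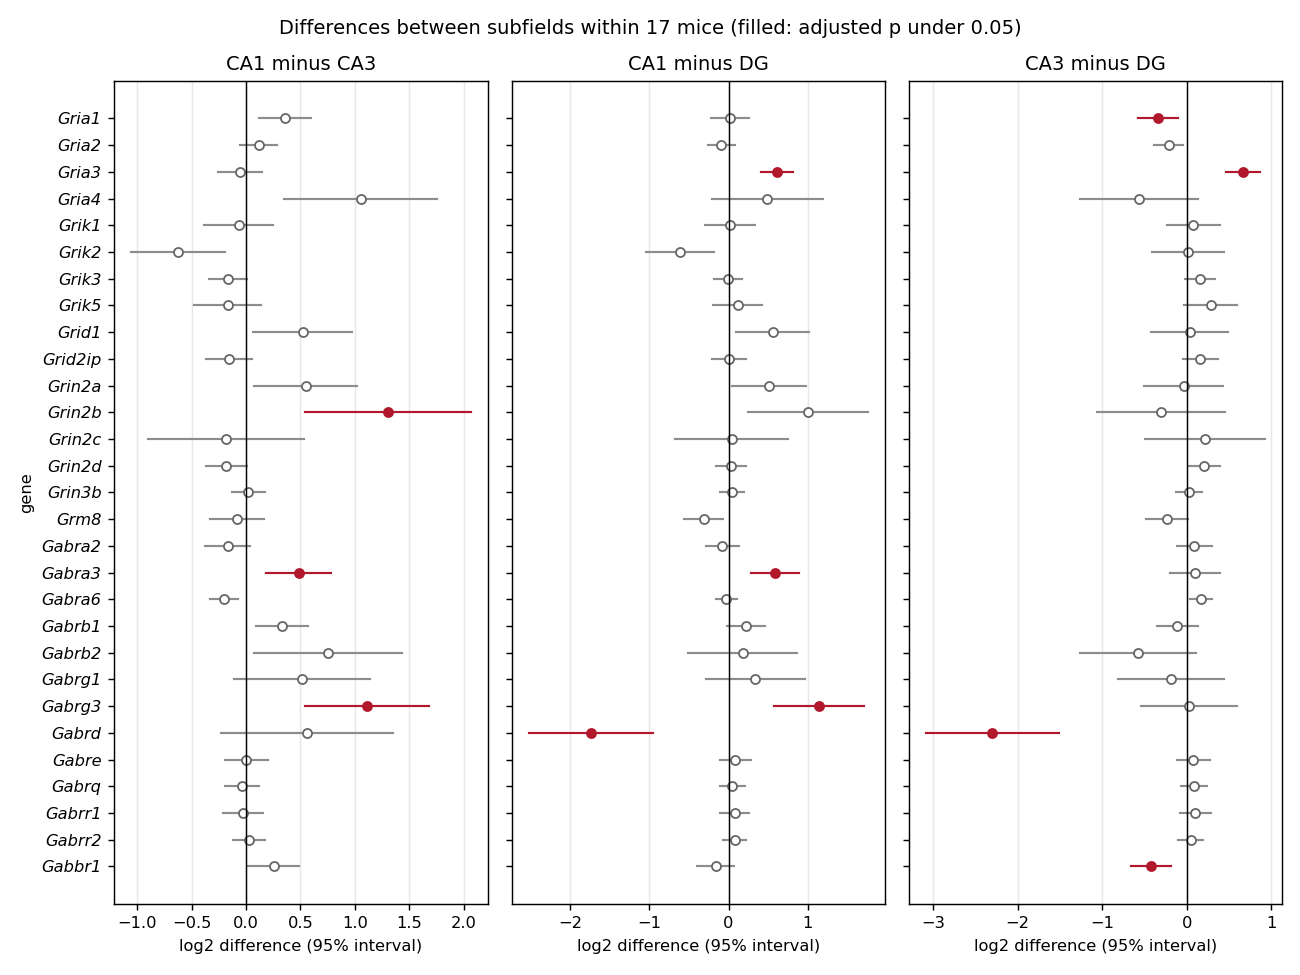
Difference in log2 signal between subfields for the 29 genes, with 95% intervals from the fit within 17 mice; filled red points have an adjusted p under 0.05. Gabrd lies lowest against DG (−1.74 from CA1 and −2.30 from CA3) and Gabrg3 is higher in CA1 than in CA3 and in DG by 1.11 and 1.14.

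The largest difference among the 29 genes was that of Gabrd, which encodes the delta subunit of extrasynaptic GABA-A receptors that carry tonic inhibition. Its log2 signal had a lowest, median and highest value of 2.30, 6.06 and 7.72 in DG, 1.99, 4.38 and 5.83 in CA1, and 2.04, 3.25 and 5.96 in CA3. DG was thus high and CA3 low, with 10 of 17 DG arrays above every CA1 array and 10 above every CA3 array, but the ranges overlapped, and the lowest DG value was that of mouse 5 of rTg4510. Gabrd was 4.93-fold lower in CA3 than in DG (log2 difference −2.30, SE 0.39, limma adjusted p = 3.7e-05) and lower in 15 of 17 mice. It was 3.34-fold lower in CA1 than in DG (−1.74, SE 0.39, adjusted p = 0.00178), again in 15 of 17 mice. Leaving out each mouse in turn kept both calls. Without the 7 CA1 arrays whose markers scored highest for CA3, the difference between CA1 and DG was −1.44 and lost its call (adjusted p = 0.0790), while CA3 against DG stayed at −2.30 (adjusted p = 0.000107). Within genotypes the difference from CA3 to DG was −3.29 in DN mice alone (adjusted p = 0.00713), −2.22 in tTA mice alone (0.0547) and −1.38 in rTg4510 mice alone (0.399). Of these, rTg4510 and tTA were set against each other, and that difference did not pass for Gabrd or any other of the 29 genes.

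Among AMPA receptor subunits, Gria3 separated DG from both pyramidal layers. Its lowest, median and highest log2 signals were 8.22, 8.95 and 9.64 in CA1, 8.40, 8.996 and 9.32 in CA3, with 7.64, 8.31 and 8.77 in DG. CA1 and CA3 covered nearly the same range, DG lay lower, and 12 of 17 CA3 arrays exceeded every DG array. Gria3 was 1.59-fold higher in CA3 than in DG (0.67, SE 0.10, adjusted p = 6.3e-06) and 1.53-fold higher in CA1 than in DG (0.61, SE 0.10, adjusted p = 3.6e-05), each in 16 of 17 mice. Between CA1 and CA3 it differed by −0.06 (95% interval −0.26 to 0.15). These calls held with each mouse left out and without either set of 7 arrays. In DN mice alone CA3 against DG passed (0.66, adjusted p = 0.0159). It did not pass in tTA mice alone (0.80, adjusted p = 0.167) or in rTg4510 mice alone (0.57, adjusted p = 0.0742). CA1 against DG passed in no genotype alone, with 0.44 in DN (adjusted p = 0.109), 0.85 in tTA (0.213) and 0.59 in rTg4510 (0.0932).

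Gria1, which encodes GluA1, ran differently: its lowest, median and highest log2 signals were 9.02, 9.66 and 10.54 in CA1, 8.64, 9.35 and 9.82 in CA3, with 8.79, 9.74 and 10.21 in DG. CA3 was the low layer, with wide overlap. It was 1.27-fold lower in CA3 than in DG (−0.34, SE 0.12, adjusted p = 0.0480), in 13 of 17 mice, and a second Gria1 probe set gave −0.59 (SE 0.11, adjusted p = 1.3e-04) and was also higher in CA1 than in CA3 (0.39, SE 0.11, adjusted p = 0.0307), where the brighter probe set missed the threshold (0.36, SE 0.12, adjusted p = 0.0741). The call on the brighter probe set was lost in 12 of the 17 fits that left out 1 mouse (adjusted p up to 0.119), and it was held only without mouse 4 of DN, mouse 5 or mouse 6 of rTg4510, or mouse 1 or mouse 5 of tTA. It was also lost without the 7 arrays that went against Prnp or Xist (0.162) and without the 7 CA1 arrays with CA3 markers (0.0506), and with each array centred on its median (0.0969). Gria2, the subunit that makes AMPA receptors impermeable to calcium, differed between subfields by at most 0.21 in size on its brighter probe set, and no comparison passed. Gria4 was at 4.16 ± 1.23 in CA1, 3.10 ± 0.94 in CA3 and 3.66 ± 1.23 in DG (SD, n = 17), and its difference between CA1 and CA3 of 1.05 (SE 0.34) had an adjusted p of 0.0753.

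For NMDA receptors, Grin2b, the GluN2B subunit known for slow channel closing and for synaptic plasticity, passed as higher in CA1 than in CA3. Its lowest, median and highest log2 signals were 4.09, 5.75 and 7.31 in CA1, 2.17, 5.21 and 5.97 in CA3, with 1.47, 5.14 and 6.86 in DG. The layers overlapped widely, with 7 of 17 CA1 arrays above every CA3 array and 5 CA3 arrays below every CA1 array. Grin2b was 2.47-fold higher in CA1 than in CA3 (1.30, SE 0.37, adjusted p = 0.0343), in 14 of 17 mice, and its difference between CA1 and DG of 1.003 (SE 0.37) missed the threshold (adjusted p = 0.0840). The call was lost in 10 of the 17 fits without 1 mouse (adjusted p 0.0507 to 0.0673): without any one DN mouse, mouse 1 or mouse 2 of rTg4510, or mouse 2 or mouse 5 of tTA. It was lost without the 7 arrays against Prnp or Xist (0.0721). In 1 genotype alone the difference was 1.78 in DN (adjusted p = 0.102), 1.54 in tTA (0.648) and 0.64 in rTg4510 mice (0.892). The second Grin2b probe set was under the background mark on all 51 arrays and bears on no comparison. Grin2a, the GluN2A subunit, was at 5.42 ± 1.10, 4.87 ± 0.67 and 4.91 ± 0.66 in CA1, CA3 and DG, with differences of 0.55 and 0.51 between CA1 and the other layers that did not pass (adjusted p = 0.213 and 0.179). Grin2c differed by at most 0.22 in size.

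Of the kainate subunits, Grik2 (GluK2) came closest to the threshold, with means of 4.97 ± 0.76 in CA1, 5.59 ± 0.55 in CA3 and 5.58 ± 0.63 in DG. The CA1 mean lay under that of CA3 by 0.62 (SE 0.21, adjusted p = 0.0893) and under that of DG by 0.61 (SE 0.21, adjusted p = 0.0577), and neither difference passed. CA3 and DG differed by 0.01 (95% interval −0.41 to 0.44). Grik5, Grik1 and Grik3 differed between any pair of layers by at most 0.28 in size, with no adjusted p under 0.05. The delta receptor subunit Grid1 differed from CA1 to CA3 and to DG by 0.52 and 0.56 on the log2 scale without passing (adjusted p = 0.227 and 0.119), and Grm8, the metabotropic glutamate receptor analysed here, differed by at most 0.31.

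Higher signal in CA1 than in both other layers was called for a pair of GABA-A subunits, Gabrg3 (gamma 3) and Gabra3 (alpha 3). Gabrg3 was above the background mark on all 51 arrays and Gabra3 on 12, and the Gabra3 means of CA3 and DG lay under it (1.83 and 1.73, against 2.31 in CA1), so its differences are measured against layers at background level. The 250 bases before the annotated start of each are shown because these are the genes called higher in CA1 than in both other layers, on the strand of the gene, in RefSeq GRCm38.p6. Capitals mark matches to a GC box (GGGCGG) in Gabrg3 and to a TATA box (TATAAA) in Gabra3, each searched on both strands, and the windows are at chr7:57387216-57387465 (minus strand, 60.4% GC) and chrX:72656920-72657169 (minus strand, 42.4% GC).
Gabrg3: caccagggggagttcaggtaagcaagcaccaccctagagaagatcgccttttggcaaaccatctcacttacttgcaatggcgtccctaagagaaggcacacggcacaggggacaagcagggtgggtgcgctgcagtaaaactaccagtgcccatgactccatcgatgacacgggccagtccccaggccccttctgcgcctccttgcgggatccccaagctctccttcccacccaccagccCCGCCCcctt
Gabra3: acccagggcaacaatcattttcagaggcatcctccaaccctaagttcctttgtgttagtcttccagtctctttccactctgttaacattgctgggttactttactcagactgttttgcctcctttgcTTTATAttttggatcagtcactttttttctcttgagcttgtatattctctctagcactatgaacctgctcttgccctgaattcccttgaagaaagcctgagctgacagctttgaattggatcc
A match describes letters and not a binding site. Of 32851 windows of this length in the mouse annotation, 32.7% held a GC box and 12.4% a TATA box, and the 2 promoters did not share a motif. For 22 of the 29 genes 29 windows were found, and 13 of these windows held a GC box and 4 a TATA box. Gabra3 has a second annotated start, whose window overlaps the one shown and holds the same TATA box match. No window of these genes held the cAMP response element TGACGTCA, which occurred in 1.55% of all windows.

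Gabrg3 had a lowest, median and highest log2 signal of 3.05, 4.96 and 6.97 in CA1, 2.42, 4.02 and 5.74 in CA3, with 2.75, 3.89 and 6.13 in DG. CA3 and DG were alike in centre, and CA1 lay about 1 log2 unit above them with overlapping ranges. The difference from CA1 to CA3 was 1.11 (SE 0.28, 2.16-fold, adjusted p = 0.0131; higher in 13 of 17 mice) and from CA1 to DG 1.14 (SE 0.28, 2.20-fold, adjusted p = 0.00483; higher in 17 of 17 mice). Both calls held with each mouse left out. Without the 7 CA1 arrays that scored highest for CA3 the differences were 1.47 and 1.50 (adjusted p = 0.00599 and 0.00408). That selection by itself favours a wider difference from CA3 and is no support for the call. Without the 7 arrays against Prnp or Xist the call against CA3 was lost (1.05, adjusted p = 0.0543). Gabra3 had a lowest, median and highest log2 signal of 1.57, 2.31 and 3.87 in CA1, 1.44, 1.66 and 4.53 in CA3, with 1.36, 1.57 and 3.42 in DG. CA1 had the highest median and the ranges overlapped, and the highest values in CA3 and DG both came from mouse 4 of rTg4510. The difference was 0.59 from CA1 to DG (SE 0.15, adjusted p = 0.00579; 15 of 17 mice) and 0.49 from CA1 to CA3 (SE 0.15, adjusted p = 0.0493; 13 of 17 mice). The second of these held only without mouse 1, mouse 4 or mouse 6 of rTg4510 or mouse 4 of tTA, was lost in the 13 other fits without 1 mouse (adjusted p up to 0.118) and was lost without the CA1 arrays with CA3 markers (0.0699) and without the 7 arrays against Prnp or Xist (0.115). It was also lost with each array centred on its median (0.0771) and with quantile normalization (0.0704).

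**Figure D3:**
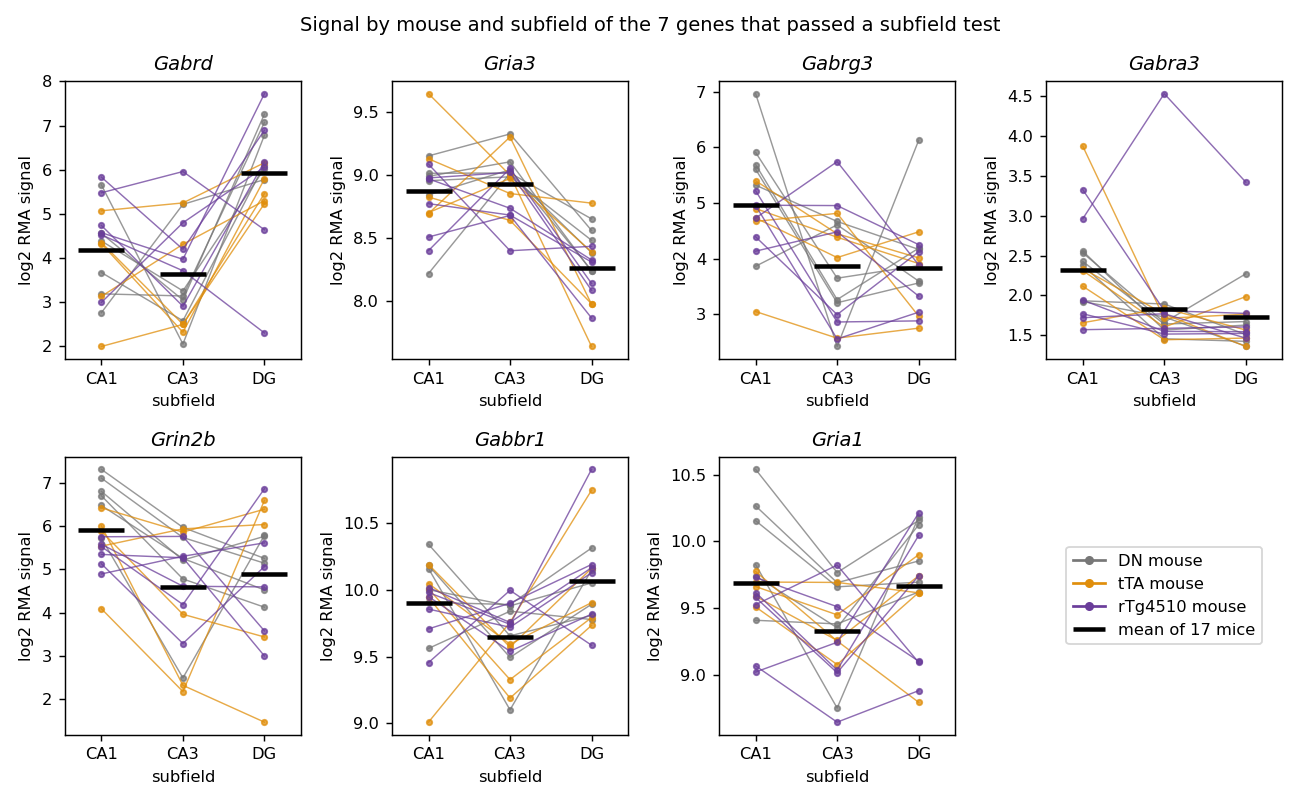
Log2 RMA signal in CA1, CA3 and DG of the 7 genes that passed a subfield test, with 1 line per mouse (grey DN, orange tTA, purple rTg4510) and black bars for the mean of 17 mice. Gabrg3 falls from CA1 to DG in 17 of 17 mice and Gabrd rises from CA3 to DG in 15 of 17, and single mice such as the rTg4510 mouse at 4.53 for Gabra3 in CA3 lie far from the rest.

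Gabbr1, which encodes the ligand-binding subunit of the GABA-B receptor, had a lowest, median and highest log2 signal of 9.01, 9.98 and 10.34 in CA1, 9.10, 9.72 and 9.99 in CA3, with 9.59, 10.05 and 10.90 in DG. CA3 was the low layer, and 9 of 17 DG arrays lay above every CA3 array. Gabbr1 was 1.34-fold lower in CA3 than in DG (−0.42, SE 0.11, adjusted p = 0.0100), in 15 of 17 mice. That call held with each mouse left out and was lost without the 7 arrays against Prnp or Xist (adjusted p = 0.0549). A second Gabbr1 probe set gave −0.38 with an adjusted p of 0.246. The other GABA-A subunits above the array median did not pass between any layers. Gabra2 (alpha 2) was at 6.84 ± 0.22, 7.01 ± 0.45 and 6.92 ± 0.35 in CA1, CA3 and DG, Gabrb1 (beta 1) at 8.47 ± 0.37, 8.14 ± 0.48 and 8.25 ± 0.31, and Gabrb2 (beta 2) at 4.90 ± 1.08, 4.15 ± 0.85 and 4.73 ± 0.81. For Gabra2 the 95% interval of the difference from CA1 to DG was −0.28 to 0.13, and for Gabrb2 from CA1 to CA3 it was 0.07 to 1.44.

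Without the 7 CA1 arrays whose markers scored highest for CA3, 9 of the 29 genes passed between CA1 and CA3, where 5.67% of all probe sets passed. All except Gabra6 were higher in CA1: Gabrg3 and Grin2b as before, Gabrb2 by 1.46 (adjusted p = 0.00977), Gabbr1 by 0.47 (adjusted p = 0.0118), and also Gria1, Gria4, Grid1 and Grin2a. Between CA1 and DG 5 genes passed, Gabra3, Gabrg3, Gria3, Grid1 and Grin2a, against 6.88% of all probe sets, and between CA3 and DG 3 genes, against 14.8%. This selection was made after the marker scores had been seen. It took arrays from CA1 alone, for marker scores nearer to CA3, which by itself favours wider differences between CA1 and CA3. The added calls are therefore not independent support.

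Proteins that accompany these receptors were read from lists of known partners, whose counts stand beside 4.68%, 10.9% and 13.9% of all probe sets that passed between CA1 and CA3, CA1 and DG, and CA3 and DG. These lists were chosen with earlier results of these data known, so their counts are no test against those shares. Of 9 genes for AMPA receptor auxiliary and clustering proteins, 4 passed between CA1 and CA3 (2 higher in CA1), 3 between CA1 and DG (1 higher) and 3 between CA3 and DG (1 higher in CA3). Nptx2, a secreted pentraxin that clusters AMPA receptors, was at 7.10 in CA1 against 4.58 in CA3 (difference 2.51, SE 0.32, adjusted p = 1.8e-06) and 4.95 in DG (2.14, SE 0.32, adjusted p = 8.0e-06). Its relative Nptx1 ran the other way, lower in CA1 than in CA3 by 1.48 (SE 0.17, adjusted p = 3.7e-07). Among the transmembrane regulators, Cacng5 was higher in CA1 than in CA3 by 2.54 (SE 0.44, adjusted p = 0.000167) and Cacng2 (stargazin) was higher in CA3 than in DG by 1.59 (SE 0.22, adjusted p = 2.0e-06). Cnih3, a cornichon that slows AMPA receptor closing, differed from CA1 to DG by −2.43 (SE 0.25, adjusted p = 5.8e-09) and from CA3 to DG by −1.83 (SE 0.25, adjusted p = 9.9e-07). For these auxiliary genes, then, the highest layer was CA1 for Nptx2 and DG for Cnih3. Neto1, the kainate and NMDA receptor auxiliary protein and the single gene measured from its list, was lower in CA1 than in CA3 by 1.14 (SE 0.22, adjusted p = 0.000871) and than in DG by 0.94 (SE 0.22, adjusted p = 0.00329).

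Among 11 scaffold genes of glutamate synapses, 2 passed between CA1 and CA3 (1 higher), 3 between CA1 and DG (3 higher) and 6 between CA3 and DG (4 higher in CA3). The Homer proteins, which tie metabotropic glutamate receptors to the cell's calcium stores, differed from one another. Homer2 was lower in CA3, by 1.55 than in CA1 (SE 0.28, adjusted p = 0.000272) and by 1.40 than in DG (SE 0.28, adjusted p = 0.000338), while Homer3 was higher in CA3 than in DG by 1.17 (SE 0.14, adjusted p = 1.4e-07). Shank3 was higher in CA3 than in DG by 0.74 (SE 0.17, adjusted p = 0.00254). Of 7 partners of GABA receptors, 1 passed in each comparison. Kctd12, an auxiliary subunit of GABA-B receptors, was higher in CA1 than in CA3 by 0.60 (SE 0.17, adjusted p = 0.0272) and differed from CA3 to DG by −0.88 (SE 0.17, adjusted p = 0.000188), so the GABA-B subunit Gabbr1 and this partner were both lower in CA3 than in DG. Hap1, which takes part in the transport of GABA-A receptors, differed from CA1 to DG by −0.37 (SE 0.09, adjusted p = 0.00306).

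Of 8 genes of transmitter synthesis and transport, 4, 3 and 3 passed in the same order of comparisons. Gad1, which makes GABA, differed from CA1 to CA3 by 0.88 (SE 0.18, adjusted p = 0.00126), from CA1 to DG by −0.65 (SE 0.18, adjusted p = 0.0118) and from CA3 to DG by −1.53 (SE 0.18, adjusted p = 4.7e-08), and Gad2 from CA3 to DG by −1.37 (SE 0.26, adjusted p = 0.000162). DG was thus the highest layer for Gad1. Abat, which breaks GABA down, was higher in CA1 than in CA3 by 0.97 (SE 0.19, adjusted p = 0.00115), and Slc1a1, the neuronal glutamate transporter, by 0.89 (SE 0.14, adjusted p = 3.5e-05).

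Markers of other cells moved with the layers. Of 16 interneuron markers, beside the same 4.68%, 10.9% and 13.9% of all probe sets, 4 passed between CA1 and CA3 (4 higher in CA1), 7 between CA1 and DG (3 higher) and 6 between CA3 and DG (1 higher in CA3), and the mean log2 signal of the list ran from 4.42 to 6.14 in CA1 (median 5.34), 4.31 to 5.17 in CA3 (median 4.79) and 4.45 to 5.74 in DG (median 5.29). Of 11 astrocyte markers, 2, 7 and 4 passed, with list medians of 5.74, 5.90 and 6.43 in CA1, CA3 and DG (ranges 5.26 to 7.38, 4.97 to 6.69 and 5.18 to 7.19). Their part in the differences of receptor subunits was not tested. The 3′ to 5′ difference of the Gapdh control probes, a sign of RNA quality, had medians of 2.32, 2.40 and 2.67 in CA1, CA3 and DG, and its part was not tested either.

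Genotypes were then compared within each subfield and over the mean of the subfields of each mouse. No receptor subunit gene passed in any of these 12 comparisons (limma, 3 genotypes fitted together, adjusted p under 0.05), and hardly any probe set did: 0% in most, and 0.00442% (1 of 22626) in rTg4510 against DN in CA1 and in rTg4510 against tTA in CA3. At an unadjusted p under 0.05, 0 of 29 genes passed between rTg4510 and tTA in CA1, 0 in CA3 and 2 in DG, where 3.97%, 5.91% and 5.71% of all probe sets did. Between tTA and DN the counts were 2, 0 and 2, where 4.59%, 6.13% and 5.21% of all probe sets did, and between rTg4510 and DN 3, 1 and 2, where 5.39%, 3.94% and 4.73% did. Over the mean of the subfields they were 0 for rTg4510 against tTA, 3 for tTA against DN and 3 for rTg4510 against DN, where 5.35%, 6.17% and 5.41% of all probe sets did. The values that follow are those of the smallest unadjusted p in each comparison, and none is a difference that passed the test. Of 69 such values, those on differences between subfields included, 31 moved by over 1.5 times when 1 mouse was left out, and none changed sign.

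**Figure D4:**
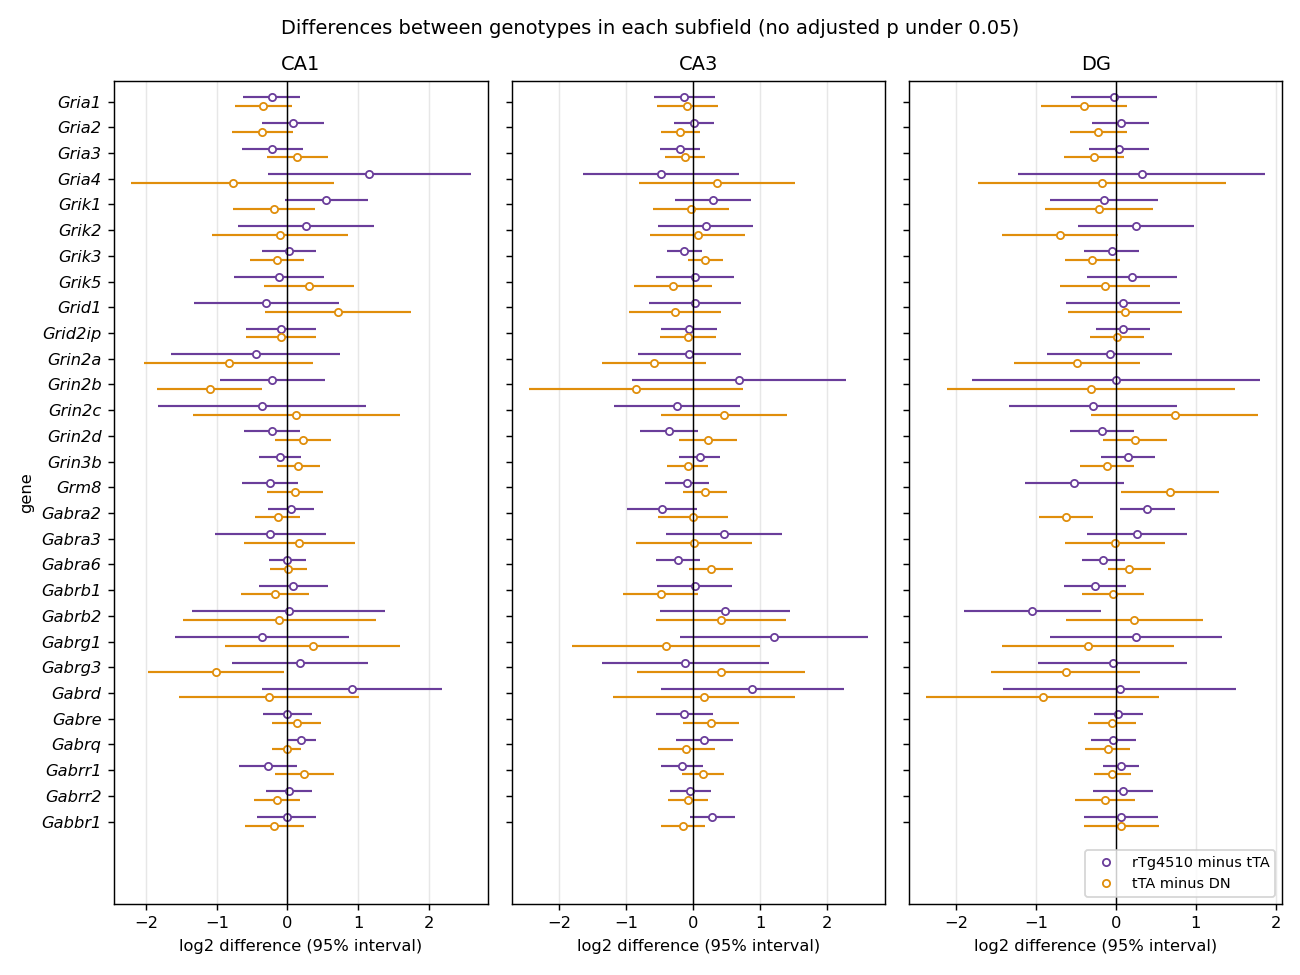
Difference in log2 signal of the 29 genes between rTg4510 and tTA (purple) and between tTA and DN (orange) in CA1, CA3 and DG, with 95% intervals; the 2 comparisons share the tTA mice. Most intervals include 0, no adjusted p is under 0.05, and Gabra2 in DG is lower in tTA than in DN by 0.63 and higher in rTg4510 than in tTA by 0.39.

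In CA1, Grin2b had log2 signals of 5.72, 6.75 and 7.31 (lowest, median, highest) in DN, of 4.09, 5.54, 5.88, 6.01 and 6.42 in the 5 tTA mice, and of 4.89, 5.43 and 5.75 in rTg4510. DN lay highest and 5 of 6 rTg4510 mice lay below every DN mouse, but the ranges of the groups met. The highest DN value was that of mouse 4, whose Prnp went against the label (10.44). The lowest was that of mouse 2, one of the 7 CA1 arrays that scored highest for CA3. Mouse 4 of tTA and mouse 1, mouse 3 and mouse 6 of rTg4510 are also among these. No genotype comparison was run without those 7 arrays. rTg4510 minus DN was −1.32 (SE 0.34, adjusted p = 0.685) and tTA minus DN −1.10 (SE 0.35, adjusted p = 0.998). Without mouse 4 of tTA the second of these was −0.73. Gria1 in CA1 was at 9.99 ± 0.41 in DN (n = 6), 9.65 ± 0.10 in tTA (n = 5) and 9.42 ± 0.30 in rTg4510 (n = 6), and rTg4510 minus DN was −0.57 (SE 0.18, adjusted p = 0.785). Over the mean of the subfields the same difference was −0.41 for Gria1 (SE 0.13, adjusted p = 0.763), −0.83 for Grin2a (SE 0.28, adjusted p = 0.770) and −0.21 for Gria3 (SE 0.09, adjusted p = 0.902).

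The remaining genes in CA1 had smaller or less certain differences. Grin2a differed from DN by −1.28 in rTg4510 (adjusted p = 0.890) and by −0.83 in tTA, Gabrg3 by −0.83 in rTg4510 and −1.01 in tTA (adjusted p = 0.998), and Gria1 and Gria2 by −0.34 and −0.35 in tTA. Against tTA, the rTg4510 mice showed 0.20 for Gabrq, 0.55 for Grik1, 1.16 for Gria4, 0.92 for Gabrd and −0.28 for Gabrr1, each with an adjusted p of 0.999. Mouse 4 of tTA carried much of the values against DN, and without it tTA minus DN was −0.36 for Grin2a, −0.64 for Gabrg3 and −0.16 for Gria2. Without mouse 1 of DN, Gabrg3 in rTg4510 minus DN was −0.55, and rTg4510 minus tTA was 0.47 for Gabrd without mouse 1 of tTA and −0.12 for Gabrr1 without mouse 4 of tTA. The 6 rTg4510 mice lay above all 5 tTA mice for Gabrq (1.74 to 2.02 against 1.58 to 1.69), which was the single one of the 29 genes whose groups did not overlap in that comparison, against 0.411% of all probe sets, but every one of these signals was under the background mark of 2.23.

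In CA3, rTg4510 minus tTA was −0.46 for Gabra2, 0.29 for Gabbr1, 1.21 for Gabrg1, −0.36 for Grin2d and −0.22 for Gabra6, with adjusted p from 0.843 to 0.871. Without mouse 4 of rTg4510, the Gabra2 value was −0.23 and the Gabrg1 value 0.68, and without mouse 5 of tTA the Gabra6 value was −0.13. Groups did not overlap for Grin2d (1.98 to 2.37 in rTg4510 against 2.42 to 2.78 in tTA), where 0.659% of all probe sets had no overlap. These signals lie close to the background mark of 2.23, which Grin2d exceeded on 24 of 51 arrays (mean over all arrays 2.25). Against DN, rTg4510 differed by −0.32 for Gria3 (SE 0.14, adjusted p = 0.984), 0.88 for Gabrb2, −0.46 for Gabra2, −0.64 for Grin2a and −0.46 for Gabrb1, and without mouse 4 of rTg4510 by −0.23 for Gabra2 and −0.22 for Gabrb1. tTA minus DN was −0.48 for Gabrb1, 0.26 for Gabra6, −0.58 for Grin2a, 0.18 for Grik3 and −0.19 for Gria2. The Grin2a value was −0.33 without mouse 2 of tTA, and the Gria2 value −0.12 without mouse 4 of tTA.

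In DG, Gabra2 had log2 signals of 6.81, 7.24 and 7.46 (lowest, median, highest) in DN, of 6.26, 6.44, 6.63, 6.68 and 6.81 in the 5 tTA mice and of 6.42, 7.02 and 7.26 in rTg4510. tTA lay below DN without overlap, by a margin under 0.01 between the closest mice, and rTg4510 overlapped both. tTA minus DN was −0.63 (SE 0.16, adjusted p = 0.792), where 0.53% of all probe sets had no overlap, and rTg4510 minus tTA was 0.39 (SE 0.16, adjusted p = 0.804). These comparisons share the tTA mice. Gabrb2 was at 4.95 ± 0.60 in DN, 5.18 ± 0.82 in tTA and 4.13 ± 0.71 in rTg4510, with rTg4510 minus tTA at −1.05 (SE 0.40, adjusted p = 0.804) and rTg4510 minus DN at −0.82. For the other genes, rTg4510 minus tTA was −0.52 for Grm8, −0.26 for Gabrb1 and −0.16 for Gabra6. Against DN, rTg4510 differed by −0.35 for Grik3, −0.43 for Gria1, −0.30 for Gabrb1 and −0.57 for Grin2a, and tTA by 0.67 for Grm8, −0.70 for Grik2, −0.30 for Grik3 and −0.41 for Gria1, with adjusted p from 0.935 to 0.967. Mouse 5 of tTA, the highest for Grm8 and the lowest for Gria1, carried much of the values of these genes: without it Grm8 was −0.15 for rTg4510 minus tTA and 0.30 for tTA minus DN, and Gria1 was −0.22 for tTA minus DN. Without mouse 4 of rTg4510, Gabrb1 was −0.16 against tTA and −0.20 against DN, and without mouse 1 of tTA Gabra6 was −0.0957 for rTg4510 minus tTA.

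**Figure D5:**
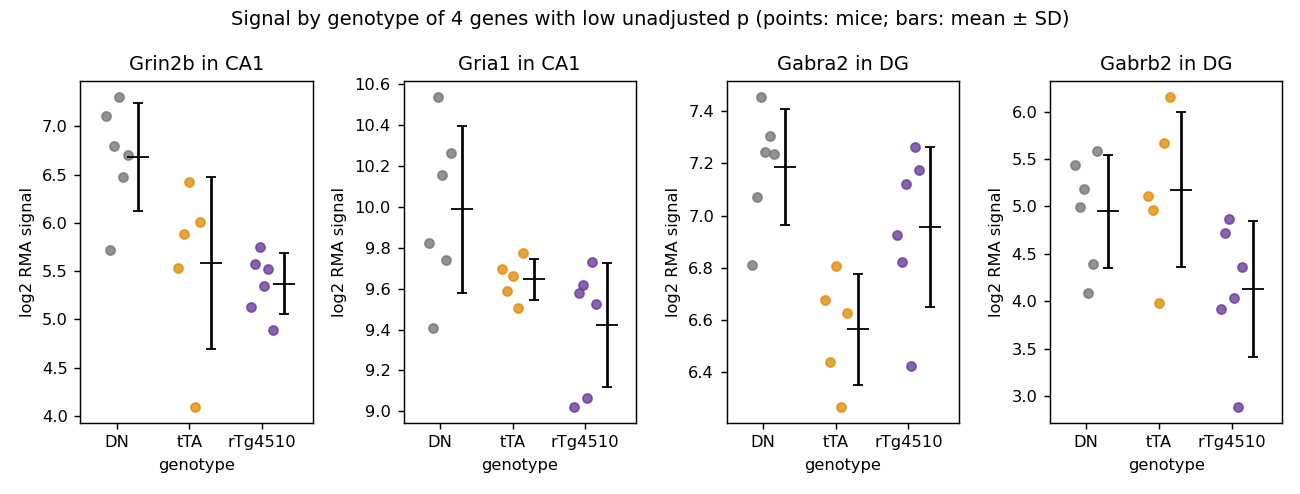
Log2 RMA signal of each mouse by genotype for Grin2b and Gria1 in CA1 and Gabra2 and Gabrb2 in DG, with the mean ± SD beside the points (6 DN, 5 tTA and 6 rTg4510 mice); the 4 genes were picked for low unadjusted p. Grin2b has a mean of 6.69 in DN and 5.37 in rTg4510 and the lowest DN mouse, at 5.72, lies within the rTg4510 range, and Gabra2 in DG is lowest in tTA.

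Over the mean of the subfields, rTg4510 minus tTA was −0.29 for Grm8 (adjusted p = 0.911), −0.25 for Grin2d, 0.62 for Gabrd, −0.13 for Gabrr1 and −0.30 for Grin2c. tTA minus DN was 0.32 for Grm8, −0.26 for Gria2, −0.63 for Grin2a, 0.44 for Grin2c and −0.28 for Gria1, each with an adjusted p between 0.802 and 0.807. rTg4510 minus DN was −0.28 for Gabrb1 and −0.26 for Gabra2, beside Gria1, Grin2a and Gria3 above. Without mouse 4 of rTg4510 these were −0.15 for Gabrb1 and −0.11 for Gabra2. Grm8 was −0.16 for rTg4510 minus tTA and 0.19 for tTA minus DN without mouse 5 of tTA, and the values without mouse 4 of tTA were −0.16 for Grin2d (rTg4510 minus tTA) and −0.14 for Gria2 (tTA minus DN). Gabrd was 0.38 for rTg4510 minus tTA without mouse 1 of tTA. Of the 5 partner lists, no gene passed between rTg4510 and tTA in any subfield.

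Whether the genotype difference itself varied among subfields was tested on the differences between arrays of the same mouse, rTg4510 against tTA, and none of the 29 genes passed. At an unadjusted p under 0.05 the counts were 0 for CA1 minus CA3, 0 for CA1 minus DG and 2 for CA3 minus DG, where 4.15%, 4.82% and 6.42% of all probe sets did. Gabra2 was 0.61 higher in CA3 than in DG in tTA mice (lowest 0.21, median 0.72, highest 0.93) and −0.24 in rTg4510 mice (−0.89, −0.12 and 0.01). The genotypes did not overlap, as in 0.605% of all probe sets, and their difference was −0.86 (SE 0.20, adjusted p = 0.677). The same contrast was 1.52 for Gabrb2 (SE 0.67, adjusted p = 0.761) and 0.96 for Gabrg1 (adjusted p = 0.814). For CA1 minus CA3, the values were 0.52 for Gabra2, −1.57 for Gabrg1 and 1.64 for Gria4, and for CA1 minus DG 0.71 for Grik1, −0.34 for Gabra2 and −0.50 for Gabra3, with adjusted p of 0.990 or more. Leaving out 1 tTA mouse took Gabrb2 in CA3 minus DG to 0.89 (mouse 5), Gabra3 in CA1 minus DG to −0.19 (mouse 5), and Gabra2 to 0.34 in CA1 minus CA3 (mouse 3) and −0.22 in CA1 minus DG (mouse 4).

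Oligodendrocyte and astrocyte markers had mostly higher means in rTg4510, and microglial markers did not in every subfield. All 9 oligodendrocyte markers had a higher mean in rTg4510 than in tTA in each subfield, with median differences of 1.19 in CA1, 1.0003 in CA3 and 0.79 in DG, as did 11, 8 and 11 of 11 astrocyte markers, although no gene of either list passed the test. Of 11 microglial markers, 10 had a higher mean in rTg4510 in CA1, 7 in CA3 and 4 in DG, with median differences of 0.87, 0.19 and −0.41, and again no gene passed. Endothelial list medians in CA1, CA3 and DG were 3.92, 4.06 and 4.15 in rTg4510 against 3.71, 3.23 and 3.52 in tTA. Those of oligodendrocyte precursors were 4.50, 4.53 and 4.68 against 4.25, 4.255 and 4.40. Interneuron list medians were 5.37, 4.81 and 5.31 against 5.39, 4.62 and 5.29. The share of all probe sets with a higher mean in rTg4510 is not given here, so nothing particular to glia is read from the counts. The part of these markers in the genotype values of receptor subunits was not tested.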

How the data were processed

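RNA from the laser-cut layers was amplified with the Ovation Pico WTA kit and hybridised to Affymetrix HT-MG-430A arrays, and the authors deposited one RMA table for the 51 arrays. By their range the deposited values are log2 signals, although the methods describe anti-log values. Aligner and genome build do not apply, and gene symbols came from the platform annotation. After 90 control probe sets were removed, 22626 were tested with limma 3.58.1 in R 4.3.3 (statmod 1.5.0 for the random block), with Benjamini-Hochberg adjustment over all of them and a threshold of 0.05. Subfields were fitted with the mouse as a fixed block, since the titles give the mouse. Genotypes were fitted together within a subfield, on the mean of each mouse, or on its differences between subfields.

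The number of arrays limits the precision. Arrays of the same mouse deviated together only weakly (mean r = 0.049 against −0.021 for other mice; 11 of 51 pairs over 0.1), so the pairing rests on the labels. For mouse 5 of DN and mouse 3 of rTg4510, Xist and Prnp went against that pairing. Genes named are those that passed, the 5 with the smallest unadjusted p in a genotype comparison and the 3 in a comparison of differences. Up to 5 of the called genes are named per partner list. The genes and lists were chosen with earlier results of these data known. Promoter windows were read from RefSeq GRCm38.p6. Alternatives were the methods' Fisher's LSD, other blocks, normalizations, filters and probe sets, and leaving out mice or doubted arrays. The fits were also run on simulated data that took their means and SDs from these arrays, and no result above rests on them. Plots used matplotlib 3.10.9 under Python 3.11.15.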

Additional observations from a re-analysis of the deposited data

Results flagged for a closer look

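A single mouse stood far from the others of its genotype and subfield, by the Dixon test on the gap to the nearest value, in 20 of 207 groups of 5 or 6 mice (23 genes in 9 groups), where chance gives about 10.35. Values are log2 signals, each followed by that of the nearest mouse of its group.

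In rTg4510, mouse 4 in CA3 was low for Gabra2 (5.54, nearest 6.77) and Gabrb1 (6.76, nearest 7.98) and high for Gabra3 (4.53, nearest 1.81), and the same mouse was high for Gabra3 in DG (3.42, nearest 1.78). Mouse 6 was high for Gabra6 in CA1 (1.60, nearest 1.42), mouse 2 high for Gabrr1 in DG (1.59, nearest 1.34), mouse 3 low for Grik2 in CA3 (4.69, nearest 5.81) and mouse 1 low for Grin2a in CA1 (3.17, nearest 4.88).

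In tTA, mouse 4 was low in CA1 for Gabbr1 (9.01, nearest 9.94) and Gabrb2 (2.73, nearest 5.06). Mouse 5 in DG was low for Gria1 (8.79, nearest 9.61) and high for Grm8 (3.90, nearest 2.36), and mouse 1 in CA3 was high for Gabrq (2.12, nearest 1.60).

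In DN, mouse 1 was high for Gabrg1 in CA1 (6.65, nearest 4.73) and for Gabrg3 in DG (6.13, nearest 4.19) and low for Gria3 in CA1 (8.22, nearest 8.84). Mouse 2 was low for Grin2b in CA3 (2.49, nearest 4.78), mouse 3 high for Grik2 in DG (6.60, nearest 5.95), mouse 4 high for Gria3 in CA3 (9.32, nearest 9.10) and mouse 5 high for Gabra3 in DG (2.27, nearest 1.67). Mouse 4 of DN in CA3 and mouse 5 of DN in DG are among the arrays whose Prnp went against the label, and mouse 4 of tTA, mouse 1 and mouse 6 of rTg4510 and mouse 1 of DN in CA1 are among those with CA3 markers.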

How the results depend on the processing

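No receptor gene passed between genotypes, or for a difference of genotype effects, under any alternative run. With Fisher's LSD of the methods the count was also 0. Another sign came only from second probe sets at background level, which bear on no direction: that of Grin2b, under the mark on all 51 arrays, gave 0.0157 for tTA minus DN and 0.20 for rTg4510 minus DN in CA1, and that of Gabrg1, above it on 19 of 51 arrays, gave −0.13 for rTg4510 minus tTA in CA3 and −0.0230 for its CA3 minus DG difference between those genotypes.

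Counts between subfields moved more. Without the replicate block 1 gene passed between CA1 and CA3 (Gabrg3; 4.31% of all probe sets), and the adjusted p was 0.221 for Gabra3 and 0.0536 for Grin2b there, 0.0602 for Gabra3 in CA1 minus DG and 0.0930 for Gria1 in CA3 minus DG. With a random replicate block, Gabra3 (0.179) and Gria1 (0.0674) were lost. With array weights 8 genes passed between CA1 and CA3 (7.13% of all probe sets) and 9 between CA1 and DG (13.9%). With DN mice alone 0, 2 and 2 genes passed in CA1 minus CA3, CA1 minus DG and CA3 minus DG (0.61%, 2.97% and 3.47% of all probe sets), and with tTA or rTg4510 mice alone 0 in each (0.0177% to 3.41%); these fits have 5 or 6 mice. Leaving out 1 mouse gave 1 to 6, 4 to 7 and 3 to 5 genes (3.86% to 4.9%, 9.64% to 11.1% and at most 13.8% of all probe sets), the highest without mouse 6 of rTg4510 in the first and without mouse 4 of tTA in the second. Without the 5 arrays whose Prnp went against the label 2 genes passed in CA3 minus DG (2772 of 22626 probe sets), and without the 7 arrays that went against Prnp or Xist 0 passed in CA1 minus CA3 (3.73%) and 2 in CA3 minus DG (11.8%). Without the 7 CA1 arrays with CA3 markers 9 passed in CA1 minus CA3 (5.67%), a contrast that this selection by itself favours. The last 3 selections were chosen after seeing the data, and the cause of these changes was not tested.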
